A study of Rattus norvegicus with 9 samples.

Results

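Plasma cell genes were followed in rat femur by poly(A) RNA sequencing. The 8 genes, Jchain, Mzb1, Xbp1, Sdc1, Prdm1, Irf4, Tnfrsf17 and Derl3, were taken by symbol from a table of 32623 gene rows. Each had a row, and each passed the filter of a mean of at least 1 FPKM (fragments scaled for gene length and sequencing depth) over the 9 libraries, which 13886 rows passed. The femora, of genotype WT per the labels, formed 3 groups of 3 libraries. Rats treated with the herb Desertliving Cistanche, a desert plant of traditional Chinese medicine, formed the first group, ovariectomized rats the second and normal SD rats, the controls, the third; the strain is labelled for the controls alone. The series title speaks of the herb in rats without ovaries, which stand for osteoporosis after the menopause, while the sample labels of the treated group name the herb alone. The labels give no age, dose or length of treatment. The labels do not say that each library came from its own animal, so every p-value refers to the spread among these samples, which may be technical.

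Plasma cells are the antibody-secreting end stage of the B lineage, and many of the long-lived ones reside in bone marrow. The transcription factors Irf4 and Prdm1 (Blimp-1) switch a B cell to this state, with Prdm1 shutting down much of the B cell programme, and Xbp1 then enlarges the endoplasmic reticulum (ER). Jchain and Mzb1 help assemble secreted antibody, Derl3 serves the disposal of misfolded ER proteins, and Sdc1 (CD138) and Tnfrsf17 (BCMA) are surface proteins, the second being a receptor for the survival factor APRIL.

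The promoters of Xbp1 and Derl3 are shown because they hold the ER stress response element, through which ATF6 and XBP1 act in mammals. Of the 8 genes, 7 (all but Mzb1) matched a RefSeq promoter of assembly GRCr8, and the 250 bases before the start were searched on both strands for CCAAT, any 9 bases and CCACG. The 2 promoters follow, 5′ to 3′ in the direction of the gene, with both ends of the element in capitals. The element begins 65 bases before the start of Xbp1 and 154 before that of Derl3. In Derl3 it lies on the opposite strand and so reads as its reverse complement. The Xbp1 stretch is chr14:84604373-84604622 on the plus strand, and that of Derl3 is chr20:12766466-12766715 on the minus strand.
Xbp1: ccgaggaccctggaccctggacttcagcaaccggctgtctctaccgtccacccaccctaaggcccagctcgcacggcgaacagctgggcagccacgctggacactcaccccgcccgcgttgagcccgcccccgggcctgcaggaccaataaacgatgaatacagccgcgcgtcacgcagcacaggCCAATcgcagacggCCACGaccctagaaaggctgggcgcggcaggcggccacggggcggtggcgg
Derl3: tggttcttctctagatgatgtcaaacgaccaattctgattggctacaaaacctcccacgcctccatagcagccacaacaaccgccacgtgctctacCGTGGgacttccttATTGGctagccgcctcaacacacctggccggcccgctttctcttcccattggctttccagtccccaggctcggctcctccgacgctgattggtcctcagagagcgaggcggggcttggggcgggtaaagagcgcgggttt

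The whole element was rare. It was found in 22 of 33469 RefSeq promoters of this length (0.0657%), against 27.2% for its CCACG end alone and 34.0% for CCAAT alone. Besides Xbp1 and Derl3, promoters of 6 genes of ER folding held it, of 19 matched from a list of 24. The elements are shown to compare the plasma cell genes with ER folding genes whose RNA is described further on, each read from its CCAAT end, with the 9 spacer bases in lower case.
Xbp1: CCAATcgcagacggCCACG
Derl3: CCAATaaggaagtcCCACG
Hspa5: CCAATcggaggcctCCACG
Creld2: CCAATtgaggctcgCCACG
Calr: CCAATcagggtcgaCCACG
Canx: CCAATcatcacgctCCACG
Dnajc3: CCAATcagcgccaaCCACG
The ends are fixed by the search, and the spacers differed from gene to gene. Hsp90b1 held the element at 2 places. Of 3 further motifs searched on both strands, the Blimp-1 core GAAAGTG (4.03% of all promoters) and the B cell octamer (1.56%) had no match in these windows of the 7 genes, and the composite element of ETS and IRF factors (2.48%) matched in Derl3. A match of letters is a description and does not show binding.

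The libraries held 54992823 to 66531156 counts. A femur sample carries marrow, bone and some attached tissue, and in such bulk RNA fewer plasma cells and less RNA per plasma cell cannot be told apart. Summed skeletal muscle markers (8 genes) ran from 494 to 980 FPKM in treated rats, from 665 to 3034 FPKM in ovariectomized rats and from 211 to 656 FPKM in controls. Haemoglobin genes took 6.89% to 8.82% of counts in treated rats, 8.41% to 10.1% in ovariectomized rats and 10.6% to 16.2% in controls. Epithelial markers (7 genes) matter because epithelia also carry Sdc1. Of these markers, Krt5, Krt14, Krt18 and Krt19 stayed below 0.1 FPKM in every library. Epcam ran from 0.12 to 0.43 FPKM and Krt8 from 1.36 to 2.88 FPKM, while Cdh1 reached 21.4 FPKM.

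Jchain was by far the most abundant of the 8 genes, with a mean of 2008 ± 422 FPKM (SD, n = 9), and it ranked between 22 and 35 among all rows in each library. Xbp1 followed at 78.9 ± 10.7 FPKM, Mzb1 at 41.5 ± 7.80 FPKM, Sdc1 at 11.8 ± 2.09 FPKM, Irf4 at 11.3 ± 1.91 FPKM, Derl3 at 8.16 ± 2.48 FPKM, Tnfrsf17 at 3.54 ± 0.738 FPKM and Prdm1 at 1.98 ± 0.411 FPKM. The order Jchain, Xbp1, Mzb1, Sdc1 held in 9 of 9 libraries, and Tnfrsf17 exceeded Prdm1 in 9 of 9. Sdc1 and Irf4 could not be ordered, with Sdc1 above Irf4 in 5 of 9 libraries, and Irf4 was above Derl3 in 6 of 9. Derl3 varied most, 2.48-fold between its highest and lowest library, and the other 7 genes varied 1.62-fold to 1.81-fold.

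**Figure D1:**
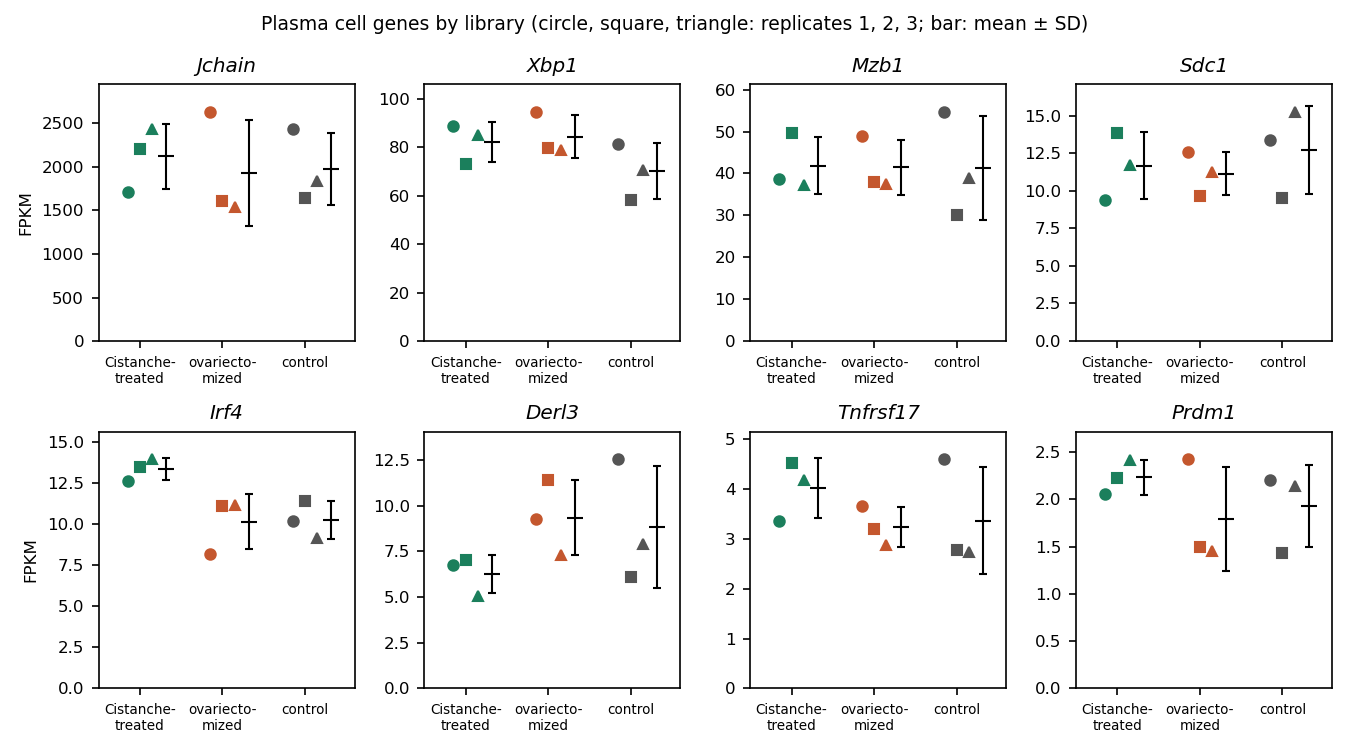
FPKM of the 8 plasma cell genes (vertical axes, from 0) in Cistanche-treated, ovariectomized and control femora. Symbols are the 3 libraries of each group, and the bar is their mean with SD; the treated libraries of Irf4 (12.6 to 14.0 FPKM) lie above all others, and the remaining panels show groups that overlap in at least 1 pair.

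Among the genes of antibody assembly and ER disposal, Jchain, the chain that links IgM and IgA into polymers (gene ENSRNOG00000003666, chromosome 14, 21177237 to 21183542 on the plus strand, in the deposited coordinates, for which no source used here names the build), had 1713, 2209 and 2441 FPKM in treated rats. It had 2631, 1609 and 1543 FPKM in ovariectomized rats and 2437, 1645 and 1840 FPKM in controls. Ovariectomized replicate 1 held the highest level and ovariectomized replicate 3 the lowest, so that group spanned the whole range and overlapped both others. Mzb1, an ER protein that helps fold and assemble immunoglobulin heavy chains (chromosome 18, 28436548 to 28438654), had 38.8, 49.7 and 37.2 FPKM in treated rats, 48.9, 37.9 and 37.5 FPKM in ovariectomized rats and 54.7, 30.1 and 38.9 FPKM in controls. Here the controls gave both the highest and the lowest library.

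Derl3, the derlin of ER-associated degradation (chromosome 20, 13704314 to 13706205), had 6.75, 7.01 and 5.06 FPKM in treated rats, against 9.29, 11.4 and 7.33 FPKM in ovariectomized rats and 12.6, 6.07 and 7.93 FPKM in controls. All treated libraries lay below all ovariectomized ones, while control replicate 2 fell inside the treated range. Its row overlaps that of Smarcb1, a chromatin remodelling subunit on the opposite strand, over 618 bases. Counting by strand is not stated, so reads in this stretch cannot be assigned. Smarcb1 itself ran from 14.0 to 16.3 FPKM over the 9 libraries.

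Of the transcription factors, Irf4 (chromosome 17, 34886739 to 34905117), which sets the plasma cell programme and also acts in activated T cells and macrophages, had 12.6, 13.5 and 14.0 FPKM in treated rats. It had 8.22, 11.1 and 11.2 FPKM in ovariectomized rats and 10.2, 11.4 and 9.15 FPKM in controls. All treated libraries exceeded all others. Prdm1 (chromosome 20, 49464919 to 49486552), which encodes the repressor Blimp-1, had 2.05, 2.23 and 2.42 FPKM in treated rats, 2.43, 1.49 and 1.46 FPKM in ovariectomized rats and 2.21, 1.43 and 2.15 FPKM in controls. Ovariectomized replicates 2 and 3 and control replicate 2 formed a low trio.

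Xbp1 (chromosome 14, 85753760 to 85758145), the factor whose messenger is activated by unconventional splicing that gene-level values do not resolve, had 88.6, 72.9 and 85.1 FPKM in treated rats, 94.4, 79.7 and 78.7 FPKM in ovariectomized rats and 81.4, 58.3 and 70.5 FPKM in controls. The ovariectomized and control groups overlapped by 1 library, control replicate 1.

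For both surface proteins the 3 groups overlapped. Sdc1 (chromosome 6, 33885495 to 33908016), a heparan sulphate proteoglycan, had 9.41, 13.8 and 11.7 FPKM in treated rats, 12.5, 9.66 and 11.2 FPKM in ovariectomized rats and 13.4, 9.51 and 15.2 FPKM in controls. Tnfrsf17 (chromosome 10, 4251941 to 4257868) rested on 175 to 291 counts a library and had 3.35, 4.53 and 4.18 FPKM in treated rats, 3.67, 3.19 and 2.88 FPKM in ovariectomized rats and 4.60, 2.77 and 2.74 FPKM in controls. Control replicate 1 and treated replicate 2 were its highest libraries.

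The comparison of treated with ovariectomized rats addresses the action of the herb if the treated rats were also ovariectomized, which their labels do not state. Irf4 stood at a log2 fold change of 0.35 ± 0.14 (SE; 95% interval 0.035 to 0.67; edgeR adjusted p = 0.929), 1.28-fold, and Derl3 at a log2 fold change of -0.62 ± 0.30 (95% interval -1.30 to 0.070; edgeR adjusted p = 0.929). Neither passed. Of the 8 genes, edgeR called 0 at an adjusted p under 0.05 and DESeq2 called 0, beside 0.0% and 0.274% of all genes tested; 1 of the 8, Irf4, had an unadjusted p under 0.05, beside 5.2%. CPM here are counts scaled to the library size of the tested rows after TMM adjustment in edgeR. They are the scale of every share of all genes without overlap. In CPM, groups did not overlap for 2 of the 8, Irf4 and Derl3, beside 12.4% of all genes. FPKM gave the same 2. The other 6 estimates lay between -0.08 (Xbp1) and 0.27 (Prdm1). The median over the 8 was 0.057, beside -0.0042 for all genes, with 5 higher and 3 lower, where 49.0% of all genes had a higher estimate. Without ovariectomized replicate 1, the lowest Irf4 library, the Irf4 estimate was 0.23 (edgeR adjusted p = 0.82).

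Treated rats were also compared with controls, with the same treated libraries as before. Irf4 was at a log2 fold change of 0.29 ± 0.14 (SE; 95% interval -0.029 to 0.61; edgeR adjusted p = 0.595) and Derl3 at -0.58 ± 0.30 (95% interval -1.27 to 0.11; edgeR adjusted p = 0.613). The remaining 6 genes ran from -0.20 (Sdc1) to 0.16 (Tnfrsf17), and Jchain was at 0.014 ± 0.24. edgeR called 0 of the 8 and DESeq2 called 0, beside 0.0% and 1.1% of all genes, and 0 of the 8 had an unadjusted p under 0.05, beside 8.81%. Irf4 alone of the 8 showed no overlap between groups, beside 13.1% of all genes. The median of the 8 was 0.071, with 5 higher and 3 lower, where 50.0% of all genes had a higher estimate. Irf4 was thus 1 of 262 genes among 13886 (1.89%) with every treated library above all libraries of both other groups.

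Beside these values for Irf4 and Derl3, markers of other cells also differed in level. The erythroid score, the mean log2 CPM of 7 markers relative to the 9 libraries, was -0.39, -0.10 and -0.32 in treated rats, -0.050, 0.12 and 0.0094 in ovariectomized rats and -0.0071, 0.70 and 0.048 in controls. All 7 erythroid markers had lower estimates in treated rats than in either other group. In treated against control rats DESeq2 called 1 of them, Epb42, and edgeR called 0. Summed neutrophil markers (8 genes) ran from 29412 to 42260 FPKM in treated rats, from 24946 to 30190 FPKM in ovariectomized rats and from 20622 to 36119 FPKM in controls. All 7 tested neutrophil markers had higher estimates in treated rats than in either other group. In treated against ovariectomized rats all 8 skeletal muscle markers had lower estimates (median log2 fold change -1.09). In treated against control rats all 7 adipocyte markers had higher estimates (median 1.34; edgeR called 0 and DESeq2 called 1, Lpl), and all 7 tested osteoblast markers had lower ones (median -0.52). The part of these cells in the result was not tested.

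Ovariectomized rats were compared with controls to ask what loss of the ovaries does. None of the 8 genes passed: edgeR called 0 and DESeq2 called 0, beside 0.0% and 0.425% of all genes, and 0 had an unadjusted p under 0.05, beside 5.05%. Estimates ran from -0.23 ± 0.18 (SE) for Sdc1 to 0.22 ± 0.14 for Xbp1, with Jchain at -0.079 ± 0.24, Mzb1 at -0.037 ± 0.22, Prdm1 at -0.14 ± 0.23 and Tnfrsf17 at -0.10 ± 0.25. Groups overlapped for all 8, where 8.94% of all genes showed no overlap. The median was -0.072, beside -0.0037 for all genes, with 2 higher and 6 lower, where 48.7% of all genes had a higher estimate. The 95% intervals of all 8 lay within a 2-fold change, the widest bounds being -0.68 and 0.72; in both comparisons of treated rats this held for 7 of 8, Derl3 being the exception. For Jchain the interval of ovariectomized against control rats ran from 0.644-fold to 1.39-fold. Beside these values, all 8 skeletal muscle markers had higher estimates in ovariectomized rats than in controls (median log2 fold change 1.67), as did all 7 adipocyte markers (median 1.28). DESeq2 called Actn3 and Eno3 of the first and Lpl of the second, and edgeR called 0. Lower estimates were found for all 7 osteoblast markers (median -0.38), all 7 erythroid markers (-0.15) and 7 of 8 macrophage markers (-0.17). The part of these cells in the result was not tested.

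**Figure D2:**
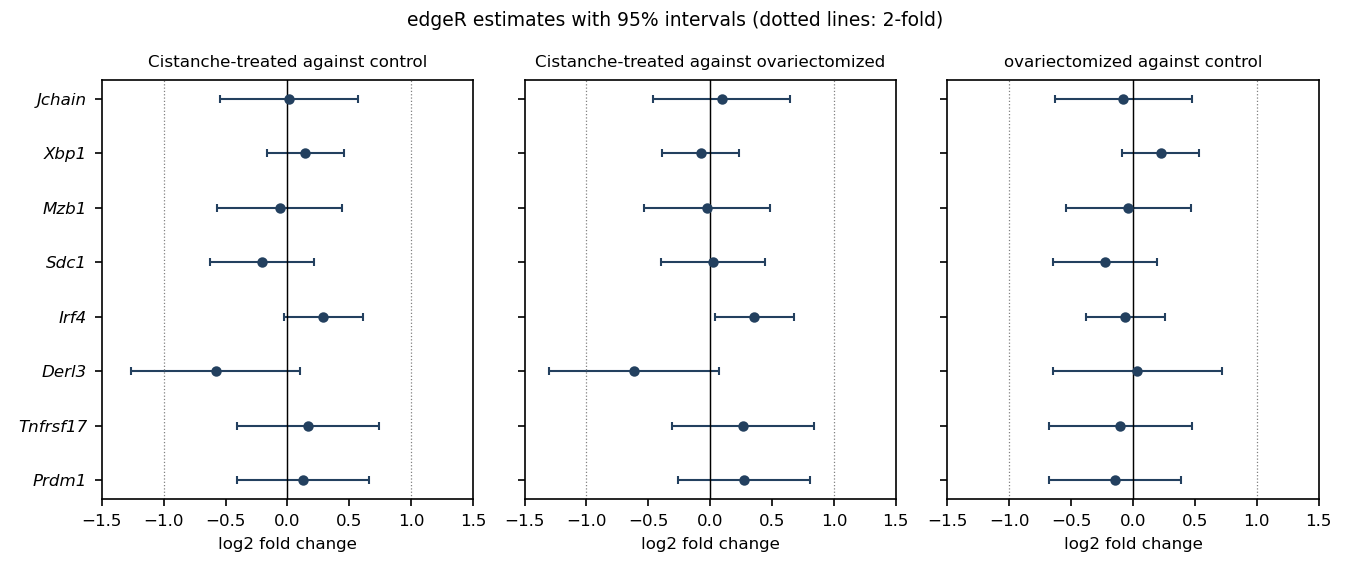
log2 fold changes (horizontal axes) of the 8 plasma cell genes from edgeR with 95% intervals, for treated against control, treated against ovariectomized and ovariectomized against control femora. Points cluster near 0, and only the interval of Irf4 in treated against ovariectomized rats (0.035 to 0.67) leaves out 0, before adjustment for the genes tested.

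Across the 9 libraries some of the genes varied together irrespective of group. Over 28 pairs, log2 CPM of 20 correlated positively, and the median Pearson r was 0.36. Jchain and Prdm1 were closest, with r = 0.856 (exact permutation p = 0.00603, adjusted p = 0.169 over 28 pairs) and Spearman rho = 0.967 (exact permutation p = 0.000165, adjusted p = 0.00463), in n = 9 libraries. Without the 2 libraries farthest from the Jchain median, control replicate 1 and ovariectomized replicate 1, r was 0.813, and within groups, after subtracting group means, it was 0.882. This was the 1 pair of 28 that passed, and it passed by rank only.

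Jchain and Tnfrsf17 had r = 0.784 (exact permutation p = 0.017, adjusted p = 0.208) and rho = 0.667 (exact permutation p = 0.0589, adjusted p = 0.33); r was 0.779 without the same 2 libraries. Mzb1 and Tnfrsf17 had r = 0.746 (exact permutation p = 0.0223, adjusted p = 0.208) and rho = 0.50 (exact permutation p = 0.178, adjusted p = 0.355), with r = 0.57 without them. Jchain and Mzb1 had r = 0.70 (exact permutation p = 0.0374, adjusted p = 0.261) and rho = 0.583 (exact permutation p = 0.108, adjusted p = 0.355), and this relation rested on those 2 libraries, since r was 0.285 without them. Of the 7 correlations of Irf4 with the other genes, 6 were negative, from -0.22 with Prdm1 to -0.54 with Derl3, and that with Tnfrsf17 was 0.25, none of the 7 passing by either measure. The sign rested on 2 libraries for 3 of them: without the 2 farthest, r was 0.49 with Jchain, 0.33 with Xbp1 and 0.099 with Mzb1.

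For the antibody genes the groups overlapped as well. Of rows named as immunoglobulin heavy, kappa or lambda genes there were 3, Igh-6, Ighm and Ighg1, and together they took 0.884% ± 0.0945 of counts in treated rats, 0.844% ± 0.168 in ovariectomized rats and 0.897% ± 0.136 in controls (SD, n = 3 each). Igh-6 stood at 5441, 4674 and 3105 FPKM in treated rats, 4635, 4985 and 2585 FPKM in ovariectomized rats and 6200, 3096 and 3881 FPKM in controls. Ighg1, the constant region of an IgG class, stood at 444, 393 and 282 FPKM in treated rats, 613, 295 and 459 FPKM in ovariectomized rats and 565, 258 and 518 FPKM in controls. The row named Ighm stood at 399, 570 and 562 FPKM in treated rats, 608, 398 and 468 FPKM in ovariectomized rats and 423, 537 and 601 FPKM in controls. This row spans 608 kilobases (chromosome 6, 138054662 to 138662365). It contains the whole Igh-6 row (138092131 to 138093643) on the same strand. Its values thus do not stand for the IgM constant region alone, and the 2 rows are not separate genes. The summed share may therefore count some reads in both rows. By name, none of the 3 rows is a light chain or IgA gene, so the share does not cover all antibody RNA. In all 3 rows the groups overlapped, and edgeR's adjusted p was at least 0.814. Constant-region genes share stretches of sequence, so reads could be split between rows.

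Over 24 relations of the 8 genes with these 3 rows, none passed after adjustment by either measure. By Pearson r, 4 had an unadjusted permutation p under 0.05. With Igh-6, Mzb1 had r = 0.694 (exact permutation p = 0.0394, adjusted p = 0.253) and Derl3 r = 0.687 (exact permutation p = 0.0421, adjusted p = 0.253). Without the 2 farthest libraries of each gene these were 0.470 and 0.394, and within groups 0.703 and 0.938. Mzb1 had r = 0.715 with Ighg1 (exact permutation p = 0.0305, adjusted p = 0.253) and rho = 0.80 (exact permutation p = 0.0138, adjusted p = 0.166), and r was 0.408 without control replicate 1 and ovariectomized replicate 1. Irf4 had r = -0.723 with Ighg1 (exact permutation p = 0.0286, adjusted p = 0.253) and rho = -0.85 (exact permutation p = 0.00607, adjusted p = 0.146), with r = -0.538 without control replicate 3 and ovariectomized replicate 1. Jchain reached r = 0.424 at most, with Ighm (exact permutation p = 0.247, adjusted p = 0.457).

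**Figure D3:**
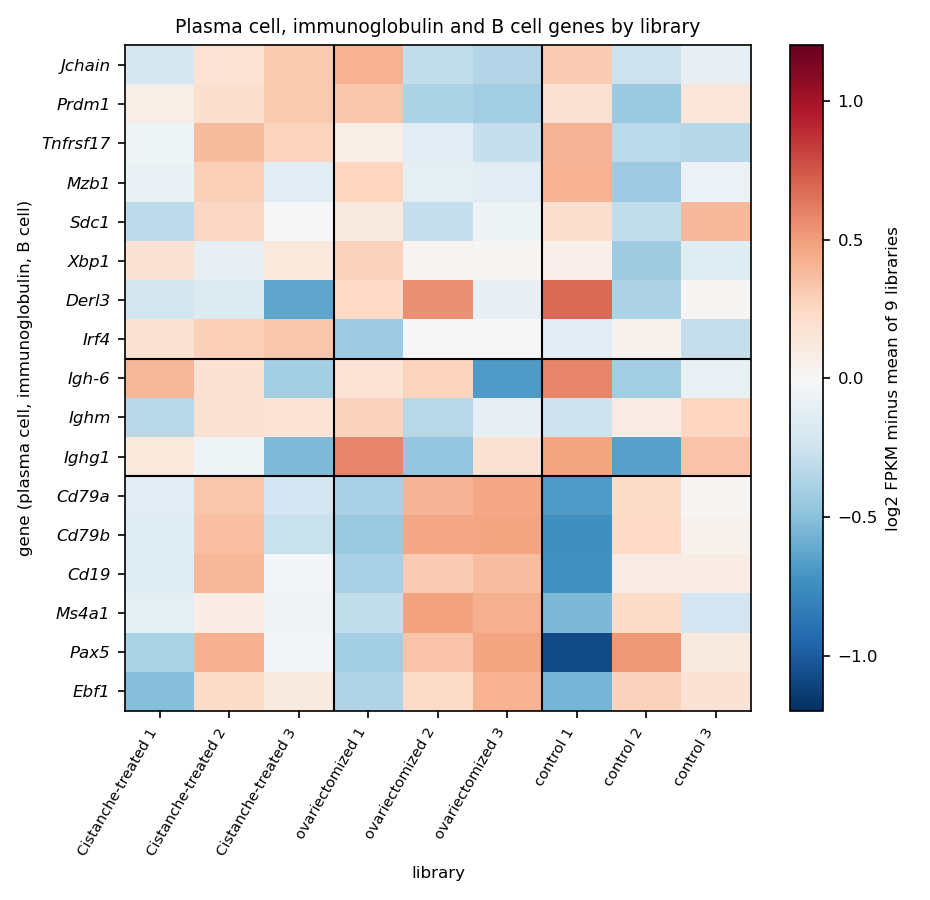
log2 FPKM relative to the mean of the 9 libraries (colour scale) for the 8 plasma cell genes, 3 immunoglobulin rows and 6 B cell genes (rows) in the treated, ovariectomized and control libraries (columns). In control replicate 1 and ovariectomized replicate 1 the 6 B cell genes drawn are low where Jchain, Prdm1 and Mzb1 are high; of the 15 B cell genes listed, 11 were below their mean in both libraries.

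Of the 15 B cell identity genes, 11 were below their mean FPKM in both control replicate 1 and ovariectomized replicate 1, where Jchain was high, and 3, Bcl6, Ciita and Cd74, were above it in both. Cd79a, chosen after the values were seen and so given as a description, is a signalling chain of the B cell receptor and stood at 118, 162 and 110 FPKM in treated rats, 98.4, 171 and 178 FPKM in ovariectomized rats and 80.5, 150 and 131 FPKM in controls. Its lowest libraries, control replicate 1 and ovariectomized replicate 1, were among the 3 highest for Jchain, and ovariectomized replicate 3, its highest, was the lowest for Jchain. Over the 9 libraries Cd79a had r = -0.807 and rho = -0.867 with Jchain, and r = -0.836 and rho = -0.883 with Prdm1. Without the 2 libraries farthest from the median of the plasma cell gene, r was -0.592 with Jchain and -0.706 with Prdm1. For Jchain these were control replicate 1 and ovariectomized replicate 1, and for Prdm1 ovariectomized replicates 2 and 3. Within groups r was -0.805 and -0.857. The remaining genes had r = -0.612 (Xbp1), -0.595 (Tnfrsf17), -0.578 (Mzb1), -0.381 (Sdc1), -0.208 (Derl3) and 0.28 (Irf4) with Cd79a. Without the 2 libraries farthest from each gene's median, r was -0.491, -0.708, 0.108, -0.180, -0.028 and -0.0029 in the same order. Within groups r was -0.944, -0.608, -0.612, -0.335, -0.405 and 0.587 in that order, so that of Xbp1 was the strongest of the 8. The T and NK cell score reached 0.58 in control replicate 1 and 0.50 in ovariectomized replicate 1, and lay between -0.73 and 0.43 elsewhere. This score leans on Gzmb, 1 of its 11 tested genes. Gzmb was at 0.0001 FPKM, a count of 0, in control replicate 2, ovariectomized replicate 2 and treated replicate 3. In treated replicate 2 it reached 10.2 FPKM. The score of -0.25 in treated replicate 3 thus rests partly on a gene without counts there. The part of these cells in the result was not tested.

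**Figure D4:**
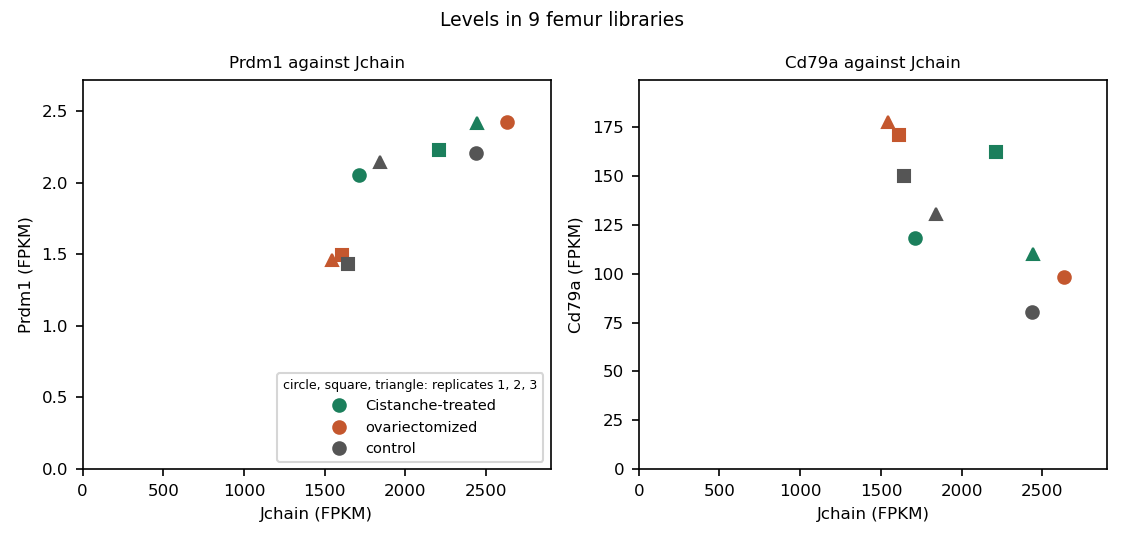
FPKM of Prdm1 (left) and of the B cell gene Cd79a (right) against Jchain FPKM in the 9 libraries, coloured by group. Prdm1 climbs with Jchain (rho = 0.967) and Cd79a declines (rho = -0.867), with libraries of the 3 groups mixed along both trends. Both rho values were computed on log2 CPM, not on the FPKM drawn.

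Of 15 further plasma cell genes listed, 13 were tested, and edgeR called 0 and DESeq2 called 0 in each of the 3 comparisons. Medians were -0.067 for treated against ovariectomized rats (6 higher, 7 lower), 0.014 for treated against control rats (7 higher, 6 lower) and 0.013 for ovariectomized against control rats (7 higher, 6 lower). Ell2, an elongation factor that favours the secreted form of antibody mRNA, was at -0.46 ± 0.13 (SE; edgeR adjusted p = 0.473) in treated against control rats, and the kinase gene Pim2 at -0.47 ± 0.20 (edgeR adjusted p = 0.929) in treated against ovariectomized rats. Each showed no overlap between those groups, in CPM and in FPKM. For other genes of the list overlap depended on the scale. In each comparison with treated rats 1 of 13 genes showed none in CPM and 3 of 13 in FPKM. Over all genes the CPM shares were 12.4% (against ovariectomized) and 13.1% (against control rats), and no FPKM share was computed. Deposited FPKM was itself shifted: on log2(FPKM + 0.1) the median difference of treated rats over all genes was 0.037 and 0.088 in that order. In edgeR it was -0.0042 and -6.02e-06. Tnfrsf13b, a receptor for BAFF and APRIL, had 4.28, 3.61 and 4.45 FPKM in treated rats and 3.12, 3.39 and 2.51 FPKM in controls, without overlap in FPKM but with overlap in CPM (log2 fold change 0.36 ± 0.24, SE; edgeR adjusted p = 0.717).

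The ER folding and stress list gives the surroundings of Xbp1 and Derl3. edgeR and DESeq2 called 0 of its 24 genes in each comparison, and 0 had an unadjusted p under 0.05 in edgeR. Medians were -0.059 for treated against ovariectomized rats (14 of 24 lower), -0.048 for treated against control rats (16 lower) and -0.011 for ovariectomized against control rats (14 lower). Hspa5, the chaperone BiP, was at 387 ± 19.0 CPM in treated rats, 453 ± 61.5 CPM in ovariectomized rats and 461 ± 57.3 CPM in controls (SD, n = 3 each), with log2 fold changes of -0.23 ± 0.12 and -0.25 ± 0.12 (SE) for treated against each in turn (edgeR adjusted p = 0.931 and 0.595). Its groups did not overlap in CPM but did in FPKM, with 150, 141 and 155 FPKM in treated rats, 193, 163 and 151 FPKM in ovariectomized rats and 188, 146 and 166 FPKM in controls. Dnajb9 at -0.25 ± 0.12 and Ern1, which encodes the enzyme that splices Xbp1 mRNA, at 0.22 ± 0.12 in treated against control rats overlapped between groups.

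Of 21 gene symbols whose promoter holds the whole element, 15 were tested, and edgeR called 0 and DESeq2 called 0 in each comparison. Their median was -0.013 for treated against ovariectomized rats (7 higher, 8 lower), -0.058 for treated against control rats (4 higher, 11 lower) and -0.023 for ovariectomized against control rats (3 higher, 12 lower). Derl3, at -0.62 in the first of these, stood beside Hspa5 (-0.23), Hsp90b1 (-0.14), Creld2 (-0.11), Calr (0.00054), Dnajc3 (0.016) and Canx (0.022) of the ER folding list. The highest of the 15 was Ero1b (0.24).

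Of the survival niche of plasma cells, 11 of 13 genes were tested, and edgeR and DESeq2 called 0 in each comparison. Tnfrsf13c, the BAFF receptor, which is mainly a B cell gene, stood at a log2 fold change of 0.91 ± 0.25 (SE; edgeR adjusted p = 0.892) in ovariectomized against control rats without overlap, and at -0.57 ± 0.25 (edgeR adjusted p = 0.929) in treated against ovariectomized rats. Cxcr4, the receptor for the homing signal Cxcl12, was at 0.18 ± 0.10 in treated against ovariectomized rats, and the interleukin 6 receptor Il6r at 0.23 ± 0.12. Of 15 B cell identity genes, 14 had lower estimates in treated than in ovariectomized rats (median -0.20) and 12 higher ones in ovariectomized rats than in controls (median 0.16), both comparisons sharing the ovariectomized libraries; edgeR and DESeq2 called 0 in each. Ms4a1, which encodes CD20, was at -0.30 ± 0.24 and 0.34 ± 0.24 in these comparisons.

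Genes whose log2 CPM was most like the mean of the 8 over the 9 libraries were, by Pearson r, Arhgdib (0.964), Rbks (0.927), Ninj1 (0.923), Slamf7 (0.917), Ly6l (0.911), Mcfd2 (0.901), Fcnb (0.899) and Gpr183 (0.899). They are the 8 highest of all named genes tested and are given as a description. Slamf7, a surface receptor found on plasma cells and also on other lymphocytes, had 3.84, 5.72 and 6.35 FPKM in treated rats, 6.27, 4.75 and 3.27 FPKM in ovariectomized rats and 7.01, 2.41 and 4.35 FPKM in controls. Its highest and lowest libraries were control replicates 1 and 2, as for Mzb1. Of the 8 plasma cell genes themselves, r with this mean, which includes each gene, was 0.94 for Mzb1, 0.865 for Tnfrsf17, 0.856 for Jchain, 0.773 for Prdm1, 0.585 for Sdc1, 0.546 for Xbp1, 0.508 for Derl3 and -0.243 for Irf4.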

How the data were processed

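Poly(A) RNA of 9 rat femur samples was measured. The authors deposited 1 table with whole-number counts and FPKM values per gene, per the file headers, with Ensembl rat identifiers; fastp, HISAT2 and StringTie are named in the submitters' processing notes without versions, and the sources used here name no build, counting tool or strandedness. FPKM, as deposited, carries the authors' scaling to length and depth, and holds 0.0001 where the count is 0. Deposited counts were treated as unscaled reads and summed to 54992823 to 66531156 a library; at such depth counting error is small beside the spread between libraries, and no 2 replicates agreed within sampling noise.

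Rows with a mean of at least 1 FPKM (13886) were tested with edgeR 4.0.16 (TMM, 1 quasi-likelihood fit of all 9 libraries, Benjamini-Hochberg adjustment, threshold 0.05); estimates carry its SE, and 95% intervals use its t distribution. DESeq2 1.42.0, limma 3.58.1, other scalings and filters, a replicate block and leaving out each library in turn were alternatives. Simulated counts served to test the edgeR fit. Correlations used log2 CPM (prior count 2) and all 362880 orderings of the 9 libraries, two-sided. Where rows shared a symbol, the row of highest mean FPKM was used. Named were the 8 genes, up to 4 genes of each list with the smallest p and the 8 most alike genes, leaving out placeholder symbols. The members and lists were chosen with earlier results of these data known. Other named genes, such as Cd79a, Calr and Smarcb1, were chosen after their values were seen. R 4.3.3, Python 3.11.15 and matplotlib 3.10.9 were used.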

Additional observations from a re-analysis of the deposited data

How the results depend on the processing

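None of the 8 plasma cell genes was called under any alternative run, in any of the 3 comparisons. Of 426 estimates of single genes under alternatives, 391 kept their direction and 35 changed it. Over all genes, DESeq2 called 38 for treated against ovariectomized, 153 for treated against control and 59 for ovariectomized against control rats, and fits of only the 2 groups called 1, 1 and 2, where the fit of all libraries called 0. With 1 library left out, 0 to 2, 0 to 3 and 0 to 4 genes were called in the same order, and the median over the 8 genes ran from -0.035 to 0.18, from -0.061 to 0.23 and from -0.20 to 0.15; the last was 0.15 without control replicate 1. The cause was not tested. 

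Mzb1 changed sign in limma on log2(FPKM + 1) and log2(FPKM + 0.1), at 0.014 and 0.014 for treated against ovariectomized, 0.051 and 0.053 for treated against control and 0.037 and 0.039 for ovariectomized against control rats. With 1 library left out, estimates for treated against ovariectomized rats ran from -0.052 to 0.39 (Jchain), -0.17 to 0.11 (Mzb1), -0.15 to 0.016 (Xbp1) and -0.12 to 0.14 (Sdc1). For treated against control rats they ran from -0.088 to 0.21 (Jchain), -0.23 to 0.21 (Mzb1) and -0.033 to 0.26 (Prdm1). For ovariectomized against control rats they ran from -0.38 to 0.11 (Jchain), -0.22 to 0.23 (Mzb1), -0.17 to 0.064 (Irf4), -0.25 to 0.20 (Tnfrsf17) and -0.17 to 0.39 (Derl3). For these genes the direction rests on single libraries.

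With the replicate number as a block, 0 genes were called in each comparison and the medians over the 8 genes were 0.090, 0.10 and -0.076 in the same order. Deviations of libraries with the same number correlated between -0.13 and 0.18, beside -0.17 to 0.14 for libraries with different numbers. Such correlations between so few libraries cannot decide whether the numbers pair the samples. With 3 libraries a group, the spread between libraries, not depth, limits what can be seen.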
